A study of Homo sapiens with 4 samples.

Results

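This section describes HEP-G2, a human liver cancer cell line with many hepatocyte traits, after transfection with a mimic of the microRNA miR-4730, gene by gene against the same line given a negative control oligonucleotide. The members were all genes with a probe set that carried a single gene name, and the measure was the value on the mimic array minus the value on the control array. That gave 17687 genes from 17709 such probe sets, out of 24351 probe sets on the array in all. Of these genes, 12381 were kept by a filter on low values (a mean over the 4 arrays of the series of at least 4.90, the 30th percentile of the named genes), and 5306 were not.

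The series held 4 Affymetrix arrays of total RNA, 1 for each combination of 2 liver cancer lines, HEP-G2 and Li-7, and 2 treatments. The mimic was given at 3 nM with Lipofectamine RNAiMAX, 24 h after the cells were seeded, and the control was the supplier's negative control #1, whose dose and handling were not stated separately. HEP-G2 was grown in DMEM and Li-7 in RPMI-1640, both with fetal bovine serum, so line and medium cannot be told apart. Biotin-labelled RNA was made from 6 ug of total RNA per sample. The title of the series names the HMGA1 pathway as the question behind the arrays. With 1 array a side there was no replicate check: no p-value or error can be given, and every value below is a difference between 2 libraries, which compares those arrays and not the conditions. The time between transfection and RNA extraction was not given in the sources used here.

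MicroRNAs are short RNAs that guide Argonaute proteins to messenger RNAs, mostly through pairing of their seed with sites in the 3′ untranslated region, and the paired messages are translated less and decay faster. A transfected mimic is a synthetic duplex that supplies the mature strand in excess, so an array of total messenger RNA reads both direct targets and everything that moves after them. HEP-G2 comes from a liver tumour and secretes plasma proteins, makes lipoproteins and divides rapidly. The mature strand is printed to show the seed that the mimic carries, with the seed (bases 2 to 8) in capitals. It is encoded at chr17:80419427-80419449 on the + strand of GRCh38.p14, and the sequence was taken from RefSeq.
hsa-miR-4730: cUGGCGGAgcccauuccaugcca
Of the 2370 mature human names in the RefSeq table, 1 had this seed, miR-4730 itself. Matches to the seed in untranslated regions were not analysed here.

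The label HEP-G2 was checked against marker genes. Of 13 measured hepatocyte markers, 12 stood above the background limit on both HEP-G2 arrays, where the limit is the value that 95% of the negative control probe sets on an array stay under (8.35 on the control array and 8.20 on the mimic array). AFP, the fetal albumin-like protein of liver tumours, stood at 16.71 on the control array and 17.17 on the mimic array. APOA2, an apolipoprotein of high-density particles, stood at 17.35 and 17.77. FOXA2, a liver pioneer factor, was under the limit on both arrays, at 6.45 and 7.20. None of 4 endothelial markers, 1 of 5 blood markers (LYZ, the secreted lysozyme, at 16.66 and 16.83) and 1 of 5 stromal markers (COL1A2, a collagen chain, at 8.62 on the control array and 0.38 higher on the mimic array) passed the limit on either array. Summed on the linear scale, the blood markers stood at 104120 and 116610, the endothelial ones at 144.39 and 140.82 and the stromal ones at 511.11 and 693.4 on the control and mimic arrays. Of 4 cholangiocyte markers, KRT19, KRT7 and SOX9 passed it on both arrays and CFTR did not.

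All values are on the deposited scale, which runs from 1.48 to 18.3 and reads as log2; its log base and its normalization were not given in the sources used here, so a difference of 1 is called 2-fold only if the base is 2. The 2 HEP-G2 arrays were close as a whole. Over the 12381 genes kept the median difference was 0.018, the quartiles were -0.38 and 0.40, the SD across genes was 0.68, and the correlation of the 2 arrays across genes, which are not independent replicates, was 0.972. The negative control probe sets, taken by their names, were the guide to noise. Of 612 such probe sets, 128 stood at least 2-fold lower on the mimic array and 84 higher, 34.6% in all, more than the 6.28% lower and 5.77% higher of the genes kept. That gap held among brighter ones too: above a value of 6, 48.6% of the negative controls passed 2-fold against 12.9% of the genes. The 63 ERCC spike-in probe sets differed by -0.59 to 0.64 and none passed 2-fold. Their medians, 4.46 on the control array and 4.19 on the mimic array, were near those of the negative controls (4.34 and 4.26). They therefore do not show precision at the level of expressed genes. Among 20 genes with several probe sets, 15 had the same sign in all of them, with a median gap of 0.37 and a largest gap of 1.30 between probe sets of a gene. The negative control differences ran from -6.60 to 8.54 with an SD of 1.51, and those of the genes kept from -4.57 to 4.32. Any single gene, even one with the widest gap, therefore lay within the range of the negative control probe sets. Other control classes varied less. The 23 background GC probe sets differed by -0.57 to 0.18 and the 4 poly-A spike-in probe sets by -0.54 to -0.02. The 4 hybridisation spike-in probe sets, at medians of 11.03 and 11.35 on the control and mimic arrays, differed by 0.23 to 0.43. None of these passed 2-fold, but they are few. The text leads with gene groups and then gives the widest gaps.

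With the mimic, 777 genes stood at least 2-fold lower, 6.28% of the genes kept, and 714 stood at least 2-fold higher, 5.77%. At 4-fold the counts were 96 lower (0.775%) and 56 higher (0.452%). Among the 7041 genes kept whose mean over both HEP-G2 arrays reached the average of the arrays' background limits (8.28), 513 were 2-fold lower (7.29%) and 406 were 2-fold higher (5.77%). Among the gene lists, mitosis and DNA replication had the lowest medians, and immediate early genes and cholesterol synthesis had the highest pair of medians. A bulk array cannot tell fewer cells in a state, such as the dividing state, from less RNA per cell.

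**Figure D1:**
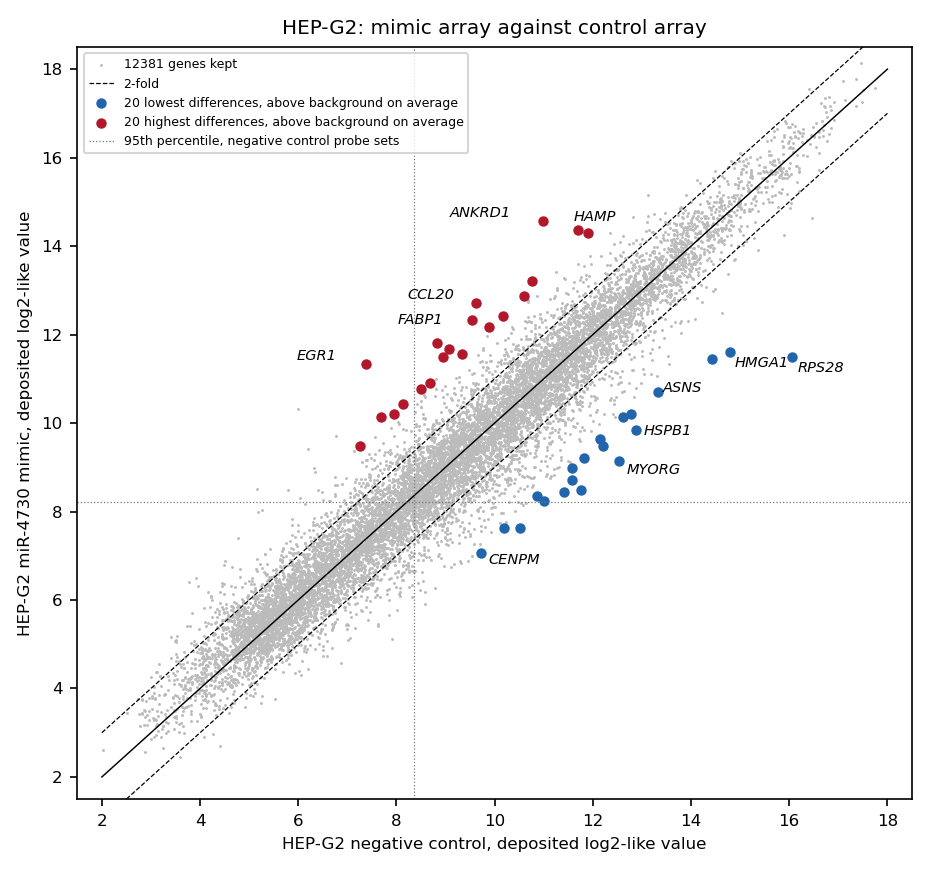
Each point is a gene kept, with its deposited log2-like value on the HEP-G2 control array (x axis) and on the HEP-G2 mimic array (y axis); dashed lines mark 2-fold, dotted lines the background limit of each array, and blue and red points the 20 lowest and 20 highest differences among genes above background on average. RPS28 and HMGA1 lie far below the diagonal at high control values, and EGR1 and ANKRD1 lie far above it.

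HMGA1, an architectural chromatin protein that binds the minor groove of AT-rich DNA and is abundant in tumours, stood at 14.79 with the control and at 11.62 with the mimic. The difference of -3.17, which is 9.02-fold if the scale is log2, was the fourth lowest among the genes above background. In Li-7 the difference was -4.02. Its relative HMGA2 stood at 8.45 and 8.35 in HEP-G2, close to the background limit on both arrays, a difference of -0.10 beside 2.15 in Li-7. Among 13 high mobility group genes kept, 12 lay lower with the mimic and 3 passed 2-fold, with a median of -0.61 beside 0.018 over all genes. HMGB2, a chromatin-bending protein of dividing cells, went from 12.99 on the control array to 10.91 on the mimic array. HMGN2, a nucleosome-binding protein, stood at 13.79 and 12.03. These 3, HMGA1, HMGB2 and HMGN2, were the members past 2-fold, and HMGB1, at 14.13 and 13.35, lay lower by less.

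The 20 lowest differences among genes above background ran from -4.57 to -2.49, and each gene is named here with both arrays. RPS28, part of the small subunit of the ribosome, stood at 16.07 on the control array and 11.50 on the mimic array, the lowest difference of all genes kept. RPS28 has near-identical copies in the genome, so its probe set is uncertain. MYORG, a glycosidase-like membrane protein, stood at 12.53 and 9.14. TSN, translin, a nucleic acid binding protein of small RNA processing, stood at 11.77 and 8.50. HSPB1, the small heat shock protein HSP27, stood at 12.89 and 9.84. None of these 4 lay in the cell cycle lists, and all 4 lay lower in Li-7 too, by -2.42, -0.54, -1.83 and -3.08 in the same order. MYORG was under the background limit on both Li-7 arrays, at 7.26 and 6.72 (limits 8.72 on the control array and 7.99 on the mimic array).

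SLC25A1, the mitochondrial citrate carrier that feeds lipid synthesis, stood at 11.41 on the control array and 8.45 on the mimic array. TBL1X, a subunit of the NCoR and SMRT corepressor complex, stood at 10.52 and 7.64 and so ended under the background limit. ASPSCR1, a tether of glucose transporter vesicles, ended at 8.25, a difference of -2.76. Of 11 corepressor genes kept, TBL1X was the single one past 2-fold, and its paralogue TBL1XR1 stood at 8.68 and 8.96. ATP5F1D, the delta subunit of the mitochondrial ATP synthase, stood at 12.21 and 9.47, while the other 16 ATP synthase genes kept were within 2-fold. PABPC4, a cytoplasmic poly(A)-binding protein, stood at 12.78 and 10.20. CLN6, a membrane protein of the endoplasmic reticulum that serves lysosomal enzyme export, stood at 10.18 and 7.62. AATF, a nucleolar protein of ribosome maturation, stood at 12.62 and 10.14. The others of the 20 were HMGA1 and the histones H2BC14 and H2AX, ASNS, TK1 and 4 mitotic genes, described with their groups. In Li-7 all 20 lay lower, 15 of them 2-fold, from -4.02 to -0.09, but MYORG and ASPSCR1 were under the background limit on both Li-7 arrays.

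**Figure D2:**
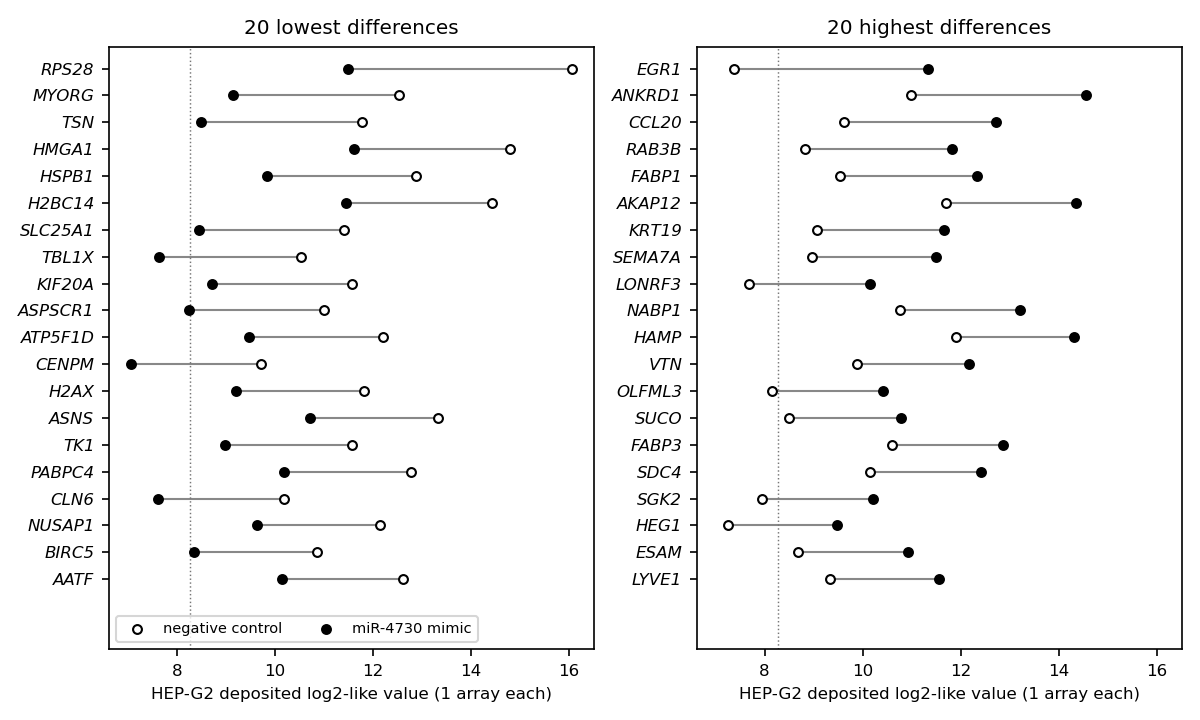
HEP-G2 values of the 20 genes with the lowest differences (left) and the 20 with the highest (right) among genes above background on average; open circles are the control array, filled circles the mimic array, 1 array each, and the dotted line is the mean background limit of 8.28. On the left 17 of 20 genes stay above the limit on the mimic array, and on the right 15 of 20 were above it on the control array.

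Before S phase the MCM helicase is loaded at origins, and CDC45 and GINS then switch it on for the polymerases. E2F transcription factors drive many of these genes. All 50 genes of the replication and G1/S list were kept and all 50 lay lower with the mimic, 42 of them 2-fold, with a median of -1.64 beside 0.018 over all genes kept. In Li-7 the median of the list was -0.95. E2F8, a repressor of the E2F family that peaks late in S phase, stood at 9.30 with the control and at 6.87 with the mimic, the widest gap of the list. DTL, the adaptor that sends CDT1 to degradation, stood at 11.49 and 9.14. UHRF1, which recruits DNMT1 to newly made DNA, stood at 11.31 on the control array and differed by -2.31. The last of these lay lower by only -0.23 in Li-7, beside -2.16 for E2F8.

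All 6 subunits of the MCM2-7 helicase passed 2-fold, with differences of -2.36 to -1.39. MCM2 stood at 10.10 and 7.74, which took it below the background limit. GINS1 to GINS4 and CDC45 all 5 passed 2-fold, with a median of -1.93. The sliding clamp PCNA and 4 subunits of its loader all passed it too, from -2.26 to -1.06, led by RFC3 at 12.84 and 10.58. Of 8 polymerase and primase subunits 6 passed it; POLD1 stood near the bottom of the scale at 5.11 and 5.01. MCM10, an initiation factor that bridges helicase and polymerase, stood at 7.63 and 5.42, under the limit on both arrays. The groups by role were formed after the values were seen.

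The E2F family itself was uneven: of its 8 genes 3 were 2-fold lower, the median was -0.57, and the differences ran from -2.43 to 0.78. Thymidine kinase TK1, which salvages thymidine in S phase, stood at 11.58 and 8.98. The ribonucleotide reductase subunits RRM2 (13.17 and 11.59) and RRM1 (13.78 and 12.26) and the dUTPase DUT (11.60 and 10.11) also passed 2-fold. With CAD, an enzyme of pyrimidine synthesis at 9.74 and 8.54, they were the 5 of 13 deoxynucleotide supply genes kept that did so, and the list had a median of -0.71.

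Promoters of the replication genes are shown because the whole list lay lower and a base pattern was more frequent in it than among the genes kept. The pattern was the E2F motif, searched on both strands as TTTCGCGC, TTTGGCGC or TTTCCCGC in the 300 bases from 250 before to 50 after the RefSeq start site (GRCh38.p14). It was present in 23 of 42 replication genes with a promoter in the table (54.8%), in 4.48% of the 10168 genes kept with a promoter and in 2.79% of all 27305 promoters. Windows of 41 bases from 6 of the genes follow, on the gene's own strand, with the match in capitals; a match read from the other strand appears as its complement. MCM2 lies at chr3:127598397-127598437 on the + strand, DTL at chr1:212035724-212035764 (+), UHRF1 at chr19:4909471-4909511 (+), RFC3 at chr13:33818078-33818118 (+), GINS2 at chr16:85688961-85689001 (-) and MCM3 at chr6:52284722-52284762 (-).
MCM2: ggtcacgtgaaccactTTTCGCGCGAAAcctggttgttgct
DTL: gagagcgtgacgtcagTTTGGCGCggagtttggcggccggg
UHRF1: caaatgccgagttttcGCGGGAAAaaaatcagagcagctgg
RFC3: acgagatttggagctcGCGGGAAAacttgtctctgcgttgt
GINS2: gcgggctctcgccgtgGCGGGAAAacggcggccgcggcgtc
MCM3: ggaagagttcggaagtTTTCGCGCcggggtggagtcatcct
The capitals in MCM2 cover a pair of matches that overlap on opposite strands. GINS2 stood at 9.95 and 7.94 and MCM3 at 13.52 and 11.52.

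Across the whole table, 72 of 644 genes 2-fold lower had the E2F motif (11.2%), beside 17 of 575 genes 2-fold higher (2.96%) and 4.10% of the genes within 2-fold. Seen the other way, 15.8% of the 456 genes with the motif were 2-fold lower, against 5.89% of the 9712 without it. In Li-7 the same shares were 6.80% and 3.85%. These shares include the genes of the replication list, so they are not separate from the count in that list. A match is a run of letters and not a measured binding site.

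Homologous recombination mends broken forks with the sister strand, and its genes are expressed with S phase. All 28 genes of this list kept lay lower, 18 of them 2-fold, with a median of -1.22 beside -0.83 in Li-7. XRCC2, a recombination protein, stood at 10.47 on the control array and 8.20 on the mimic array. BRCA1, which prepares ends for recombination, stood at 8.87 and 7.04, and the nucleases EXO1 and DNA2 at 9.57 and 7.60 and at 8.25 and 6.28, the latter under the limit on both arrays. The damage kinases ATM (11.67 and 11.64) and ATR (6.69 and 6.53) were the members close to 0 difference. ATM and ATR fall outside the rule for naming genes and were picked after their values were seen. H2AX, the histone variant phosphorylated around breaks, stood at 11.82 and 9.21.

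Mitosis genes are switched on in G2 and serve the spindle, the kinetochores and cytokinesis. All 64 genes of the list were kept, 63 lay lower and 56 passed 2-fold, with a median of -1.80, the lowest of the 72 lists. In Li-7 the median was -0.39. KIF20A, a kinesin of the central spindle, stood at 11.57 on the control array and 8.72 on the mimic array, and differed by only -0.09 in Li-7. NUSAP1, which bundles spindle microtubules, stood at 12.15 and 9.63. BIRC5, survivin, a member of the chromosomal passenger complex, stood at 10.86 and 8.34. The exception was the checkpoint protein BUB3, at 14.77 and 14.78, which also acts outside mitosis.

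By role, 10 of 11 mitotic kinases and cyclins passed 2-fold, with a median of -1.91. The remaining one was AURKA, the spindle pole kinase, at 13.79 and 12.82. All 5 condensin subunits, which fold mitotic chromosomes, lay lower by -2.45 to -1.48. Of 13 kinetochore and centromere genes 10 passed 2-fold, from CENPM at 9.72 and 7.07 to SPC24 at 9.26 and 8.91. CDCA5, sororin, the guard of cohesin, stood at 10.23 and 7.77, and CDCA8, borealin, a partner of BIRC5, at 10.12 and 7.97. Both ended under the background limit, as did NCAPD2, HMMR and NDC80, so their differences rest on the mimic array at background.

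Of 31 genes named KIF that were kept, 17 lay lower and 14 higher, 12 and 2 of them 2-fold, with a median of -0.09 that turned to 0.0022 after loess. In groups formed after the values were seen, all 12 mitotic kinesins, KIFC1 among them, were 2-fold lower, with a median of -1.91, while none of 12 transport kinesins kept was, with a median of 0.48, and 2 were 2-fold higher. KIF9, in neither group, stood at 8.98 and 7.53. KIF14, a kinesin of cytokinesis, stood at 9.32 and 6.84 and KIF2C, which takes microtubules apart at kinetochores, at 9.73 and 7.66. KIF5B, the main conventional kinesin, stood at 14.70 and 14.85, and KIF3C at 7.87 and 9.12. KIF5B, KIF3C and KIF9 were picked after their values were seen. In Li-7 the medians of the same groups were -0.49 and 0.23.

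The mitosis promoters are shown for the same reason as the replication ones, with another pattern. The CHR motif, searched as TTTGAA on both strands, is known from late cell cycle promoters, often beside CCAAT boxes. It was present in 35 of 55 mitosis genes with a promoter (63.6%) and in 0 of 42 replication genes, beside 10.5% of the genes kept and 15.4% of all promoters. In the other direction the E2F motif was present in 5 of 55 mitosis genes (9.09%). The letters CCAAT, searched on both strands, were in 40 of the 55 (72.7%) and in 37.0% of the genes kept (35.7% of all promoters). The windows are NUSAP1 at chr15:41332877-41332917 (+), KIF14 at chr1:200620727-200620767 (-), NCAPD2 at chr12:6493940-6493980 (+), HMMR at chr5:163460593-163460633 (+), NDC80 at chr18:2571537-2571577 (+) and CCNB2 at chr15:59105100-59105140 (+), with the match in capitals.
NUSAP1: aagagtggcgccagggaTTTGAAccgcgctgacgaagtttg
KIF14: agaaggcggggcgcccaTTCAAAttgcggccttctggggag
NCAPD2: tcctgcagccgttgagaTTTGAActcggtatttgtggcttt
HMMR: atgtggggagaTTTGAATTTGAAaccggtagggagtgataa
NDC80: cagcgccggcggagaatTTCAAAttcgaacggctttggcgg
CCNB2: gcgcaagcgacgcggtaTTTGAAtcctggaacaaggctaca
HMMR holds 2 copies side by side. NCAPD2, a condensin subunit, stood at 10.65 and 8.20, and HMMR, a spindle protein that also binds hyaluronan, at 10.59 and 8.15. NDC80, which couples kinetochores to microtubules, stood at 10.53 and 8.19, and CCNB2, a mitotic cyclin, at 11.27 and 8.99.

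Of the 1071 genes kept with the CHR letters, 11.5% were 2-fold lower in HEP-G2, against 5.73% of those without. In Li-7 those shares were 3.64% and 4.02%. With both CHR and CCAAT, 16.4% of 450 genes were 2-fold lower in HEP-G2 and 4.67% in Li-7. Of the 52 genes with both E2F and CHR letters, 11.5% were 2-fold lower in HEP-G2. The shares include the genes of the mitosis list, so they are not separate from the count in that list. Whether the lines differ in these shares was not tested.

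Replication-dependent histone genes are read in S phase to package new DNA, and their messages normally end without a poly(A) tail. Of 53 kept, 48 lay lower, 18 of them 2-fold and 1 was 2-fold higher, with a median of -0.80 beside -0.60 in Li-7. H2BC14 stood at 14.44 on the control array and 11.45 on the mimic array. H1-5, a linker histone, stood at 10.78 and 8.60, and H2AC11 at 9.17 and 6.82. Histone genes are near-identical copies, so the share of each is uncertain and the count is not one of independent genes. CCAAT letters were in 39 of 49 histone promoters (79.6%).

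Chromatin writers and erasers lay on both sides, with 37 genes kept, a median of -0.27 and 6 lower and 3 higher at 2-fold. DNMT3B, a de novo DNA methyltransferase, stood at 8.02 and 5.76, under the limit on both arrays. EZH2, the histone H3 lysine 27 methyltransferase, stood at 9.94 and 8.74. SUV39H1, a heterochromatin methyltransferase, stood at 10.25 and 8.99. KDM5B, a histone demethylase, lay the other way, at 10.21 and 11.67.

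**Figure D3:**
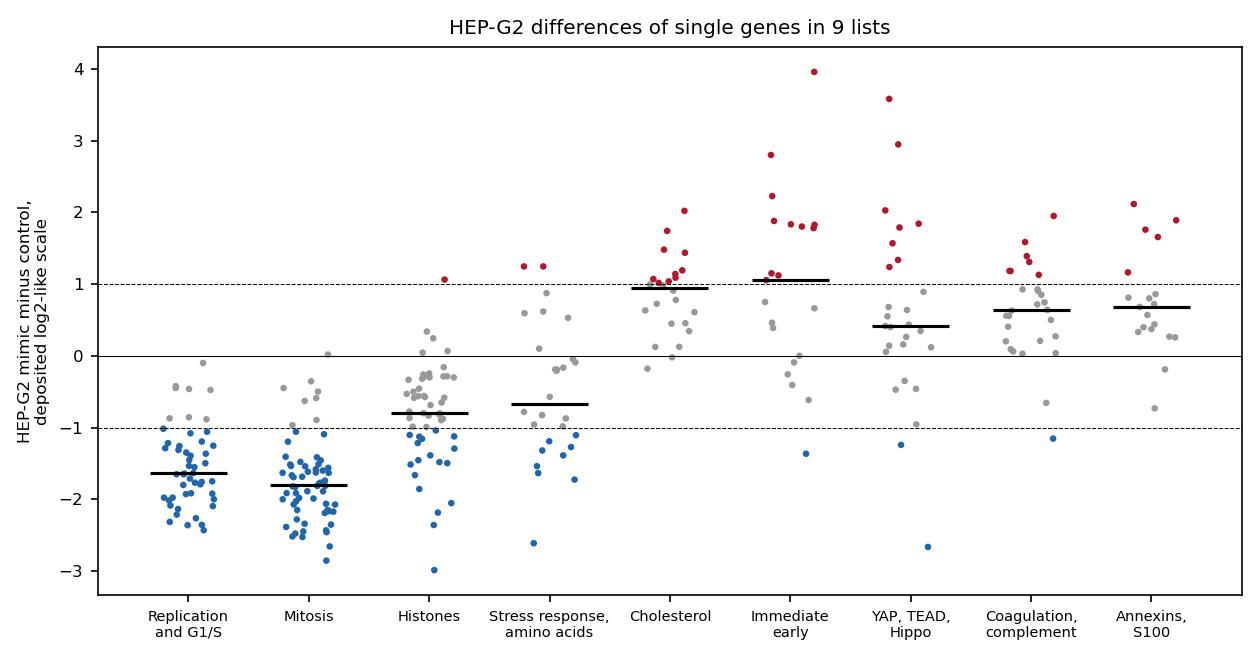
HEP-G2 differences (mimic minus control, deposited log2-like scale) of the single genes kept in 9 lists, spread sideways at random for legibility; blue points are at least 2-fold lower, red points at least 2-fold higher, and the bar is the median. Replication and mitosis genes form blocks below 0 (medians -1.64 and -1.80), while the immediate early and YAP, TEAD and Hippo lists hold members on both sides.

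The integrated stress response raises ATF4, which switches on amino acid import and synthesis. Of 28 genes kept, 21 lay lower, 9 of them 2-fold, and 2 were 2-fold higher, with a median of -0.68 beside -0.62 in Li-7. ASNS, asparagine synthetase, an ATF4 target, stood at 13.32 on the control array and 10.71 on the mimic array. ATF4 itself stood at 13.67 and 12.29. MTHFD2, a mitochondrial folate enzyme, stood at 14.08 and 12.35, and SLC1A5, a glutamine carrier, at 13.20 and 11.67. All 5 serine and one-carbon enzymes lay lower, 3 of them 2-fold, with a median of -1.11. The 2 members past 2-fold the other way were DDIT3 (CHOP), at 7.46 and 8.70, and CHAC1, a glutathione-degrading enzyme, at 4.49 and 5.74. Both are ATF4 targets as well. CHAC1 was under the background limit on both arrays of each line and differed by -2.01 in Li-7. DDIT3 and CHAC1 were picked after their values were seen.

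Genes of protein synthesis lay a little lower, and so did the positive control probe sets of the array. Those 2197 probe sets, at medians of 13.11 on the control array and 12.76 on the mimic array, had a median difference of -0.25. Of them 119 were 2-fold lower and 23 higher. The ribosomal protein and initiation factor medians given here lie near that value. In the highest of 5 equal bins of genes by mean HEP-G2 value the median was 0.08. What lies behind these medians was not tested. Of 14 cytosolic tRNA synthetases, 13 lay lower with a median of -0.66 and 1 passed 2-fold, YARS1, at 12.45 and 11.15. Of 54 ribosomal protein genes kept, 49 lay lower, with a median of -0.31. The 4 that were 2-fold lower, RPS28, RPS15A (16.46 and 14.63), RPL10A (14.31 and 13.07) and RPL18 (16.03 and 14.96), made up 7.41% of them, near the 6.28% of all genes kept. RPL39L was 2-fold higher, at 3.69 and 4.71 and so under the limit on both arrays, and was picked after its values were seen. Among translation initiation factors EIF4EBP1, the repressor of cap binding that mTORC1 switches off, stood at 11.81 and 9.84, and differed by 0.04 in Li-7. EIF4H, a helper of the helicase EIF4A, stood at 14.23 and 12.73. The list of 48 had a median of -0.27, with 4 lower (8.33%) and 1 higher at 2-fold, which is also near the share of all genes kept.

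Nuclear pore genes lay lower in 26 of 27 cases, with a median of -0.64 and 5 past 2-fold. POM121, a membrane anchor of the pore, stood at 12.11 and 9.65, and POM121C at 13.30 and 11.06; the pair are near-identical and count as uncertain. NUP107, of the pore scaffold, stood at 9.65 and 8.05. Of 19 heat shock and chaperone genes 17 lay lower, with a median of -0.43, but HSPB1 and HSPA1A (11.21 and 8.97), an inducible HSP70, were the 2 past 2-fold. Splicing factors had a median of -0.43 over 41 genes, with 36 lower. The 3 past 2-fold made up 7.32%, near the 6.28% of all genes kept: SF3A1 (11.63 on the mimic array, a difference of -1.37), SF3A3 (13.16 and 12.08) and SNRPB (11.74 and 10.50).

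At the upper end, the 20 highest differences among genes above background ran from 2.22 to 3.96. The highest difference of all genes kept belonged to TMC7, a channel-like membrane protein, which stood at 5.99 on the control array and 10.31 on the mimic array and did not qualify for those 20 because its mean was below the limit. EGR1, an immediate early zinc finger factor of growth factor signalling, stood at 7.38 and 11.33. ANKRD1, an ankyrin repeat protein and a standard readout of YAP activity, stood at 10.98 and 14.57. CCL20, a chemokine that draws CCR6-bearing lymphocytes, stood at 9.61 and 12.72. In Li-7 the differences were 2.02 for TMC7, -1.11 for EGR1, -0.35 for ANKRD1 and 0.06 for CCL20. EGR1 and CCL20 were under the background limit on both Li-7 arrays.

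RAB3B, a GTPase of regulated secretion, stood at 8.82 and 11.81. FABP1, the liver fatty acid binding protein, stood at 9.53 and 12.33, and FABP3, its muscle relative, at 10.60 and 12.87. AKAP12, a scaffold for protein kinase A, stood at 11.70 and 14.36. KRT19, a keratin of bile duct and progenitor cells, stood at 9.07 and 11.66, while SOX9, a factor of the same cells, lay lower, at 11.41 and 10.27. HAMP, hepcidin, the liver hormone that limits iron export, stood at 11.90 and 14.31, beside -0.74 in Li-7. Of the 20 genes 12 lay higher in Li-7 and 8 lay lower, with 4 past 2-fold higher and 1 past 2-fold lower. Among them EGR1, CCL20, RAB3B, FABP1, HAMP, OLFML3, FABP3, LYVE1 and ESAM were under the background limits of both Li-7 arrays (8.72 and 7.99). Their signs in Li-7 therefore carry little weight.

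The others of the 20 were mostly surface or secreted proteins. SEMA7A, a membrane-anchored semaphorin, stood at 8.96 and 11.49, and in Li-7 it lay higher by 2.03. VTN, vitronectin, an integrin ligand of plasma, stood at 9.88 and 12.17. SDC4, a heparan sulphate proteoglycan of focal adhesions, stood at 10.16 and 12.42. LYVE1, a hyaluronan receptor best known from lymphatic vessels, stood at 9.33 and 11.56, and ESAM, a junction protein best known from endothelium, at 8.69 and 10.92, while the endothelial markers PECAM1 (6.08 and 5.33), VWF (5.76 and 6.34), CDH5 (3.86 and 3.59) and KDR (3.04 and 2.96) were under the limit on both arrays. OLFML3, a secreted olfactomedin-like protein, stood at 8.14 and 10.42, HEG1, a junction receptor, at 7.25 and 9.48, and SUCO, a protein of the endoplasmic reticulum, at 8.51 and 10.78. Inside the cell, NABP1, a single-strand DNA binding protein, stood at 10.76 and 13.20, the kinase SGK2 at 7.95 and 10.20, and LONRF3, a RING finger protein, at 7.69 and 10.15.

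Immediate early genes are read within minutes of growth factor or stress signals without new protein synthesis. Of 21 kept, 16 lay higher, 11 of them 2-fold, and 1 was 2-fold lower, with a median of 1.06 beside 0.49 in Li-7. This was the highest median of the 72 lists as filtered, but cholesterol genes lay above it after loess (1.08 and 1.05) and with no filter on low values (0.91 and 0.71). JUN, a subunit of AP-1, stood at 5.19 on the control array and 7.99 on the mimic array, under the limit on both. DUSP1, a phosphatase that ends MAP kinase signals, stood at 7.14 and 9.37. KLF6 stood at 11.94 and 13.77 and KLF10, a TGF-beta response factor, at 9.65 and 11.53, both above the limit on both arrays. Of 6 FOS and JUN family genes kept 4 were 2-fold higher, with a median of 1.10. MYC, a driver of growth genes, went against its list, at 12.50 and 11.14.

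The EGR1 promoter is printed because it is the gene with the highest difference among those above background and a textbook target of serum response factor, which binds CArG boxes. The 300 bases at chr5:138465229-138465528 (+, GRCh38.p14, RefSeq) hold 2 CArG boxes, in capitals, the second of them starting at base -83 relative to the start site.
EGR1: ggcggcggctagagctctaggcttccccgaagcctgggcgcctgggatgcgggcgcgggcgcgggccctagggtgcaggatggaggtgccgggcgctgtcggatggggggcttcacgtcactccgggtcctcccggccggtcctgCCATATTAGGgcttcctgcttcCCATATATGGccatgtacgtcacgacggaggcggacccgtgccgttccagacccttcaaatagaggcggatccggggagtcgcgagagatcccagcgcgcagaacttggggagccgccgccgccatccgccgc
The CArG box was in 1.04% of the genes kept, in 14 of 575 genes 2-fold higher (2.43%), in 2 of 17 immediate early genes with a promoter and in 1.29% of all promoters. Of the 106 genes kept with the box, 13.2% were 2-fold higher, beside 5.58% of those without. SRF itself stood at 9.39 and 8.77. SRF and the CArG, AP-1 and TEAD motifs were picked after values were seen.

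YAP and its DNA-binding partners, the TEAD factors, drive genes of adhesion and growth when Hippo kinases are off. Of 27 genes kept 21 lay higher, 8 of them 2-fold, and 2 were 2-fold lower, with a median of 0.42 beside 0.01 in Li-7. Besides ANKRD1, the secreted targets CCN1 (6.77 and 9.72) and CCN2 (11.26 and 13.05) passed 2-fold. NT5E, the CD73 ectonucleotidase, stood at 13.12 and 15.15 and F3, tissue factor, at 6.75 and 8.59. Of the factors themselves, TEAD4 stood at 8.58 and 5.91 and so ended under the limit, TEAD1 at 8.69 and 8.81 and YAP1 at 11.70 and 11.85. TEAD1 and YAP1 were picked after their values were seen. TEAD letters (GGAATG, both strands) were in 5 of 20 promoters of the list, beside 10.8% of the genes kept, 63 of the 575 genes 2-fold higher and 3836 of all 27305 promoters.

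EGFR, the epidermal growth factor receptor, stood at 8.50 and 10.50, and its ligands HBEGF (6.39 and 7.72) and TGFA (5.89 and 7.15) were under the limit on both arrays. DUSP6, a feedback phosphatase of ERK, stood at 12.29 and 13.58, and PHLDA1, an ERK-induced gene, at 12.56 and 13.80. ARAF, a RAF kinase, lay lower, at 11.36 and 9.63, and lower by -2.54 in Li-7. In all 16 of 20 genes of the ERBB and ERK feedback list lay higher, 6 of them 2-fold and 1 was 2-fold lower, with a median of 0.45. AP-1 letters (TGANTCA, both strands) were in 6.96% of promoters of genes 2-fold higher, 2.95% of those 2-fold lower, 4.66% of the genes kept and 7.76% of all promoters.

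Inflammatory genes were split. Of 25 NF-kB targets and cytokines kept 18 lay higher, 9 of them 2-fold, with a median of 0.47. Besides CCL20, TNFRSF12A, the TWEAK receptor, stood at 10.69 and 12.74, IL32 at 12.34 and 13.85 and LIF, a cytokine of the IL-6 family, at 6.90 and 8.62. The subunit NFKB1 stood at 10.11 and 9.35, and was picked after its values were seen. Interferon and RNA sensing genes, a usual check on responses to transfected RNA, had a median of 0.20 over 35 genes and 3 past 2-fold higher (8.57%, beside 5.77% of all genes kept), IFI44 (3.52 and 5.09, under the limit on both arrays), IRF9 (9.12 and 10.58) and the RNA sensor RIGI (7.92 and 9.09). In Li-7 their median was 0.01.

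The mevalonate pathway builds sterols from acetyl units under the control of SREBP factors, and its genes usually move together. Of 24 cholesterol genes kept 22 lay higher and 10 passed 2-fold, none lower, with a median of 0.94 beside -0.10 in Li-7. HMGCS1, which makes HMG-CoA, stood at 13.24 on the control array and 14.72 on the mimic array, and MVK, mevalonate kinase, at 9.32 and 10.76. LSS, which closes the sterol rings, stood at 11.44 and 12.64, and SC5D, a late sterol desaturase, at 10.85 and 12.88. By role, 4 of 7 mevalonate genes (median 1.02) and 4 of 10 sterol genes (median 0.89) passed 2-fold. ABCA1, a cholesterol exporter and a known LXR target, also lay higher, at 11.81 and 13.55. The sterol element, searched as TCACNCCAC, was in 1 of 22 promoters of the list, beside 1.11% of the genes kept and 1.15% of all promoters.

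Fatty acid genes mostly lay higher. Of 20 synthesis and storage genes kept 14 lay higher, 4 of them 2-fold, and 1 was 2-fold lower. Of 21 oxidation genes kept 18 lay higher, 3 of them 2-fold, and 1 was 2-fold lower. ACSS2, which makes acetyl-CoA from acetate, stood at 9.76 and 11.70, and ACSL4 and ACSL1, which activate long-chain acids, at 12.62 and 13.87 and at 6.95 and 8.19. PLIN2, a lipid droplet coat protein, stood at 13.15 and 14.36, and CIDEC, another droplet protein, at 8.20 and 9.84. SLC25A1, named above, was the one synthesis and storage gene past 2-fold lower. In fatty acid oxidation, SLC25A20, the carnitine carrier, stood at 8.74 and 9.97, CPT1A, the gate to mitochondria, at 7.08 and 8.13 (under the limit on both arrays, as was ACSL1), and HADH, an enzyme of the spiral, at 10.37 and 9.28. HADH came under 2-fold after loess (-0.97) and quantile normalization (-0.99). The medians were 0.50 over 20 synthesis and storage genes and 0.36 over 21 oxidation genes.

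Secreted liver proteins lay higher. Of 28 coagulation and complement genes 26 lay higher, 7 of them 2-fold and 1 was 2-fold lower, with a median of 0.64 beside 0.45 in Li-7. F10, coagulation factor X, stood at 8.81 on the control array and 10.76 on the mimic array, F5 at 10.24 and 11.55, prothrombin F2 at 9.37 and 10.56, and complement factor CFB at 11.79 and 13.18. All 3 fibrinogen chains lay higher by less than 2-fold, from 0.56 to 0.91. Of 27 genes of other plasma proteins 21 lay higher and 6 passed 2-fold, with a median of 0.56, led by VTN and by HPX, the haem scavenger hemopexin, at 7.28 and 8.74. TTR, the thyroid hormone carrier, stood at 11.19 and 12.40. CP, ceruloplasmin, was under the limit on both arrays, at 4.92 and 3.59.

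The 13 hepatocyte identity markers had a median difference of 0.59, with 12 higher and 1 past 2-fold, TTR; ALB, albumin, was the exception at 12.46 and 12.21. On the linear scale their sum was 903210 on the control array and 1354500 on the mimic array. The transcription factors of the liver did not lie higher with them. Of 16 kept 11 lay lower, with a median of -0.20 beside 0.30 in Li-7; FOXA1, a pioneer factor, stood at 11.82 and 10.99. The single one past 2-fold was NR0B2, the corepressor SHP that bile acids raise, at 12.82 and 14.08. Of bile acid genes, SLC51B, an export subunit, stood at 8.42 and 10.43, and AKR1D1, a reductase of bile acid synthesis, at 8.03 and 10.02.

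Metal handling genes had a median of 0.54 over 22 genes. HAMP, the metallothionein MT1H (13.89 and 15.14) and the zinc exporter SLC30A1 (10.82 and 12.01) were the 3 past 2-fold higher, and CP was 2-fold lower. MT1G stood at 15.93 and 16.79. Cytochrome P450 and conjugation genes had a median of 0.23 over 27, with 6 higher and 1 lower at 2-fold; CYP24A1, which degrades vitamin D, stood at 14.18 and 15.43, and AKR1C2, a steroid reductase, at 10.85 and 9.27. Of the urea cycle and amino acid breakdown genes 3 of 23 were 2-fold lower, AHCY (11.73 and 10.32), FAH (11.94 and 10.89) and ASS1 (12.43 and 11.40), and none was 2-fold higher. FAH and ASS1 came under 2-fold after loess (-0.93 and -0.89) and after quantile normalization (-0.97 for both), and the median of the list, -0.11, turned to 0.03 after loess.

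**Figure D4:**
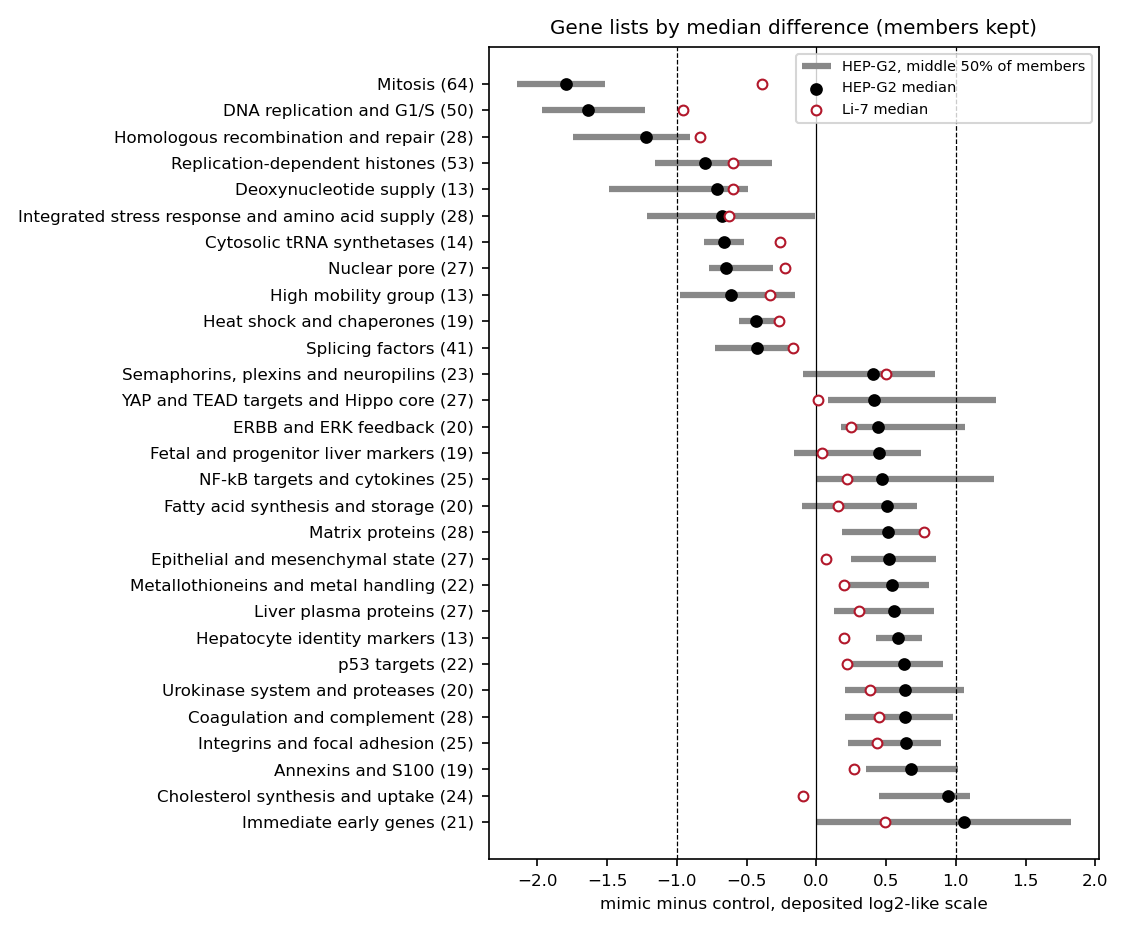
Median difference of each gene list with at least 10 genes kept and a HEP-G2 median at least 0.4 from 0 (mimic minus control, deposited log2-like scale; number of genes kept in brackets); filled circles are HEP-G2 medians, grey bars the middle 50% of members and open circles Li-7 medians. Mitosis and replication lie lowest and immediate early and cholesterol genes highest in HEP-G2, and the Li-7 circles of mitosis and cholesterol lie nearer to 0 than the HEP-G2 ones (-0.39 and -0.10).

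Surface and adhesion genes lay higher as groups. Of 25 integrin and focal adhesion genes 20 lay higher, 5 of them 2-fold, with a median of 0.65 beside 0.44 in Li-7. ITGAV, the alpha chain of vitronectin receptors, stood at 11.43 and 13.27, ITGA2, of the collagen receptor, at 10.67 and 12.78, and ITGA6, of the laminin receptor, at 11.27 on the control array with a difference of 1.73. Lower by 2-fold were FERMT1, kindlin-1, an integrin activator, at 11.63 and 10.57, and ITGB4, at 5.11 and 3.89 and so under the limit on both arrays. Of 19 annexin and S100 genes 17 lay higher and 5 passed 2-fold, with a median of 0.68; S100A11 stood at 11.71 and 13.60 and ANXA3 at 7.56 and 9.68. Of 20 genes of the urokinase system and proteases 6 passed 2-fold, with a median of 0.63; TIMP1, a protease inhibitor, stood at 14.13 and 15.49 and PLAUR, the urokinase receptor, at 6.29 and 7.59, under the limit on both arrays.

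Matrix proteins had a median of 0.52 over 28 genes, beside 0.77 in Li-7. The 2 past 2-fold, VTN and COL4A2 (7.61 and 9.03), made up 7.14%, near the 5.77% of all genes kept. Epithelial and mesenchymal genes had a median of 0.52 over 27. The tight junction proteins CLDN6 (5.79 and 8.48) and CLDN4 (9.67 and 10.89) and KRT19 were past 2-fold, and VIM, vimentin, was under the limit on both arrays, at 4.16 and 5.49. Among receptors of guidance cues, PLXND1 stood at 7.96 and 9.70 and NRP2 at 9.33 and 10.82. In the TGF-beta and BMP list, FST, follistatin, which binds activin, stood at 12.61 and 14.22, TGFB1 at 10.19 and 11.55 and ID2, a BMP target, at 13.10 and 14.56, while SMAD6, an inhibitor of BMP signals, lay lower, at 10.80 and 9.01.

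HEP-G2 carries wild-type p53, which holds the cell cycle through CDKN1A. Of 22 p53 targets kept 18 lay higher and 5 passed 2-fold, with a median of 0.63 beside 0.22 in Li-7. CDKN1A, the p21 inhibitor of cyclin-dependent kinases, stood at 11.24 on the control array and 13.40 on the mimic array. TP53INP1 stood at 8.56 and 10.63, the death receptor TNFRSF10B at 11.68 and 12.98 and TIGAR, a regulator of glycolysis, at 10.21 and 11.44. Other members lay close to 0, among them BAX, at 11.73 and 11.85, and XPC, at 9.12 and 8.88. BAX and XPC were picked after their values were seen. Of 14 negative cell cycle regulators kept, CDKN1A among them, 10 lay higher and 4 lower, with a median of 0.30. At 2-fold 2 were higher (14.3%, beside 5.77% of all genes kept) and 1 was lower (7.14%, beside 6.28%). The lower one was RBL1, the p107 pocket protein, at 10.86 and 9.50. CDKN1C stood at 7.78 and 7.27, under the limit on both arrays, and CDKN2B differed by 0.56. Of 22 BCL2 family and death regulator genes kept 15 lay higher and 7 lower, with a median of 0.18. At 2-fold 3 were higher (13.6%, beside 5.77% of all genes kept) and 0 lower. BCL2A1, a survival protein, stood at 5.16, under the limit, and 8.52, BIRC2 at 10.48 and 11.68 and MCL1 at 13.78 and 14.81. Below 2-fold, HRK differed by 0.96, BAD by 0.78 and CASP6 by -0.76.

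Other signalling lists had medians near 0 with a few wide members. In the PI3K, AKT and mTORC1 list (36 genes, median 0.03) AKT1S1, an mTORC1 inhibitor, stood at 11.03 and 9.15 and NPRL3, of the GATOR1 complex, at 8.07 and 6.28 (under the limit on both arrays), while SAMTOR, a sensor of the methyl donor, stood at 6.75 and 8.78 and the sestrin SESN3 at 7.65 and 9.39. Of 24 genes of the microRNA pathway 1 passed 2-fold (4.17% lower, beside 6.28% of all genes kept), DROSHA, the nuclear processing enzyme, at 10.84 and 9.75. AGO2 stood at 10.22 and 11.12. DROSHA came under 2-fold after loess (-0.96) and quantile normalization (-0.997), and AGO2 passed it after loess (1.04). RAB2A, a GTPase of early secretion, stood at 12.42 and 10.51, against the trend of 53 RAB genes with a median of 0.34. SQSTM1, the autophagy receptor p62, stood at 13.13 and 14.69. GNPDA1, of hexosamine breakdown, stood at 9.70 and 7.26. In Li-7 the genes AKT1S1, NPRL3, RAB2A and GNPDA1 lay lower by -1.78, -2.65, -2.46 and -3.27.

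Several large groups stayed within 2-fold. None of 35 proteasome genes (median -0.13), 31 complex I genes (median -0.06), 26 genes of ER export (median 0.14) and 29 genes of NRF2 and peroxide defence (median 0.03) passed 2-fold, where 6.28% of all genes kept did so downwards and 5.77% upwards. After loess the medians of the proteasome and complex I lists turned to 0.02 and 0.08. Of 410 zinc finger genes named ZNF 20 were 2-fold lower and 5 higher, with a median of -0.10. Of 74 mitochondrial ribosomal protein genes 2 passed it, MRPS12 (8.90 and 7.34) and MRPS17 (11.41 and 10.34). With no replicates, a value within 2-fold does not show that these genes were alike on the arrays.

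Genes crossing the background limit at 2-fold numbered 139 upwards (1.12%) and 161 downwards (1.3%). Of those crossing upwards, the highest mimic values besides EGR1, TMC7, LONRF3, OLFML3 and SGK2 belonged to AKR1D1, to RIPOR1 (8.05 and 9.98), to CDHR2, a microvillus cadherin (7.89 and 9.89), to NMRK1, which makes nicotinamide mononucleotide (8.13 and 9.86), and to CIDEC. Of those crossing downwards, the highest control values were those of NCAPD2, HMMR, NDC80, TBL1X, SLC13A4, a sulphate carrier (10.41 and 8.01), CDCA5, CLN6, RRS1, of ribosome maturation (10.17 and 7.97), CDCA8 and MCM2. Of these 10, chosen for their control values, 6 belonged to the mitosis or replication genes named above.

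Differences also varied with the level of a gene, which the filter on low values used, and with features that the choice of genes did not use. With genes put in 5 equal bins by the mean of both HEP-G2 values, 2.83% of the lowest bin were 2-fold lower and 5.78% 2-fold higher, against 9.85% and 6.26% in the middle bin and 3.55% and 5.29% in the highest. In the bin of genes with the fewest CpG pairs in their promoter (up to 13 in 300 bases) 3.59% were 2-fold lower and 8.31% higher, while the next bin had 8.21% and 3.98%. In the bin with the longest gene span, 3.84% were 2-fold lower and the median was 0.11, beside 0.14 in Li-7. Chromosome medians ran from -0.08 on chromosome 22 to 0.13 on chromosome 15.

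The HEP-G2 and Li-7 differences share no array and can be set side by side. Of the 777 genes 2-fold lower in HEP-G2, 218 were 2-fold lower in Li-7, 468 were lower by less, 88 were higher by less and 3 were 2-fold higher. So 88.3% lay lower in Li-7, beside 48.2% of all genes kept. Of the 714 genes 2-fold higher, 128 were 2-fold higher in Li-7, 445 higher by less, 126 lower by less and 15 2-fold lower, which put 80.3% higher beside 51.8% of all genes. In Li-7 itself 4.12% of the genes kept were 2-fold lower and 3.72% 2-fold higher. The correlation of the differences across the 12381 genes, which share arrays and are not independent, was 0.469, and 0.578 over the 7041 above background.

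The groups differed in how they compared. Stress response genes stood at like medians in HEP-G2 and Li-7 (-0.68 and -0.62), and so did deoxynucleotide supply (-0.71 and -0.59). Mitosis (-1.80 and -0.39) and cholesterol genes (0.94 and -0.10) stood further apart. Among the 20 lowest, HMGA1, RPS28, HSPB1, H2BC14, SLC25A1, TBL1X, ATP5F1D, ASNS, CLN6 and AATF lay at least 4-fold lower in both lines, while KIF20A, MYORG, ASPSCR1, NUSAP1 and BIRC5 were within 2-fold in Li-7. Of these, MYORG (7.26 and 6.72) and ASPSCR1 (5.06 and 4.85) were under the background limits of both Li-7 arrays (8.72 and 7.99), so a fall there could hardly be seen. None of these gaps between lines was tested, and nothing here is shown to be particular to HEP-G2.

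**Figure D5:**
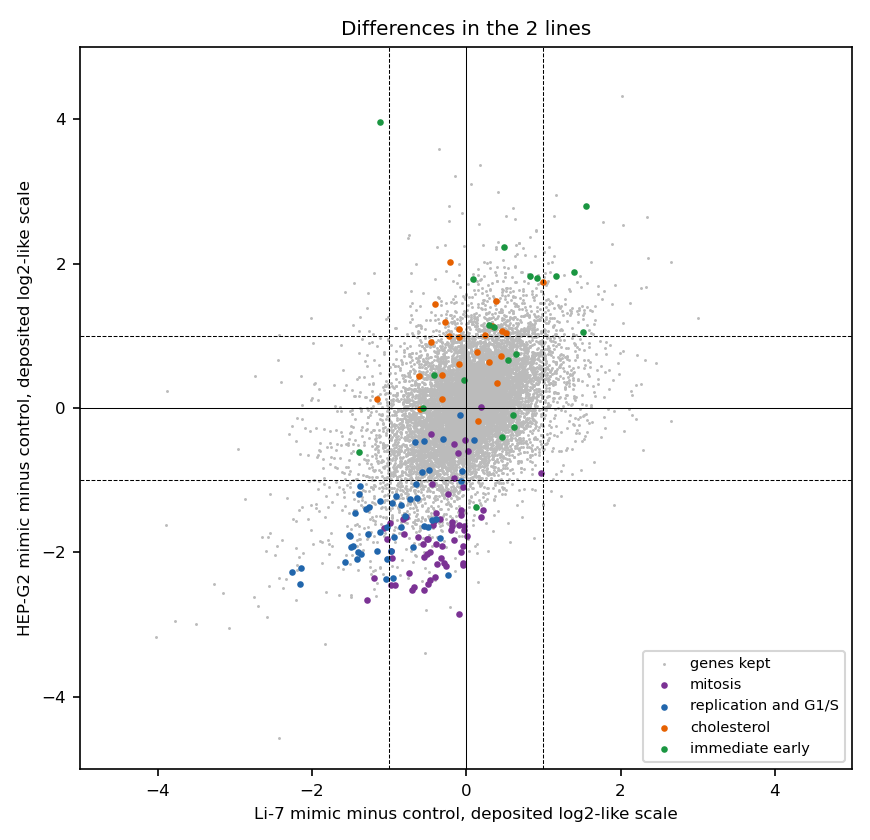
Each point is a gene kept, with its Li-7 difference (x axis) and its HEP-G2 difference (y axis), mimic minus control on the deposited log2-like scale; dashed lines mark 2-fold and colours mark 4 gene lists. Replication genes lie low on both axes (medians -1.64 and -0.95), mitosis genes low mainly on the HEP-G2 axis (-1.80 and -0.39), and EGR1 is the point at 3.96 and -1.11. EGR1 was under the background limit on both Li-7 arrays.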

How the data were processed

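Affymetrix expression arrays of 4 RNA samples were used, 1 per line and treatment, grouped by sample title. The values are the table that the authors deposited, on a scale that reads as log2; the tools named are Affymetrix Expression Console and Transcriptome Analysis Console, per the submitters' processing notes. Versions, log base, background correction and normalization were not given in the sources used here. Probe sets were named through GEO's platform annotation: 17709 of 24351 had 1 gene name, all matched by gene ID to RefSeq, and probe sets with several names were not used. For a gene with several probe sets the probe set of highest mean was used.

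The measure was mimic minus control, counted at 2-fold, with no test and no p-value. Promoters and the microRNA came from RefSeq tables on GRCh38.p14; gene span stood in for protein length, for which no table was used here. Python 3.11.15, pandas 2.3.3, numpy 2.4.6, matplotlib 3.10.9, R 4.3.3 and limma 3.58.1 (normalization alternatives alone) were used. The counting was run on simulated data with less noise than the SD across genes seen here. That run checks the counting steps and not how reliable the counts are.

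Named genes were HMGA1 and HMGA2, the 20 lowest and 20 highest differences among genes at or above the negative control limit, 10 genes crossing it each way, at most 6 of each list, by absolute difference,, and the cell type markers. The members and the 72 lists were chosen with earlier results of these data known. Alternatives were 2 other normalizations, centring, 3 filters, averaging over each gene's probe sets and 2 other fold limits. Other genes, the role groups and the CArG, TEAD and AP-1 motifs were picked after values were seen. The number of arrays limits the precision.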

Additional observations from a re-analysis of the deposited data

Results flagged for a closer look

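In 5 genes named by rule the HEP-G2 and Li-7 differences both passed 2-fold and had opposite signs; with 1 array a side this difference between lines was not tested. EGR1 differed by 3.96 in HEP-G2 and -1.11 in Li-7. FST, follistatin, differed by 1.61 and -1.58. In Li-7 both were under the background limits of the control and mimic arrays (8.72 and 7.99), EGR1 at 7.16 and 6.04 and FST at 7.33 and 5.75. C8A, a chain of complement component C8, differed by 1.59 and -1.28, and in Li-7 it was near the bottom of the scale on both arrays, at 4.18 and 2.91. LGR5, a stem cell receptor of Wnt signalling, differed by 1.15 and -1.47. ITGB4, the integrin beta-4 chain, differed by -1.22 in HEP-G2, where it stood at 5.11 and 3.89 and so under the background limit, and by 1.22 in Li-7, where it stood at 12.10 and 13.33. CHAC1, named after its values were seen, also did so, at 1.25 and -2.01, and was under the background limit on both arrays of each line. Over all genes kept, 18 lay opposite past 2-fold in both lines, 15 of them higher in HEP-G2. Of 3739 probe sets without a gene name here, which the comparisons do not use, 35 stood at least 2-fold higher with the mimic array above the negative control limit.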

How the results depend on the processing

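Under quantile normalization, cyclic loess, centring of each array, no filter on low values, a filter on the HEP-G2 arrays alone and averaging over each gene's probe sets, the counts of genes 2-fold lower (659 to 873) and higher (703 to 882) stayed within 1.5 times those reported. With the background limit as the filter they were 513 lower and 406 higher, and 69 genes crossed the limit upwards and 89 downwards; this filter tests fewer genes. At 1.5-fold the counts were 2003 lower and 2029 higher, and at 4-fold 96 and 56. The share of lower genes among those past 2-fold was 52.1% as reported and 42.8% (659 lower, 882 higher) after loess. Of 269 named genes past 2-fold none changed sign in the settings that kept them, and 11 came under 2-fold in at least 1 setting, for example RPL18 at -0.91, FERMT1 at -0.93 and SF3A3 at -0.94 after loess; 17 others passed it. List medians moved by more than the standard error across their genes in 50 of 474 cases, 26 of them after loess, and the 22 lists with medians of at least 0.5 in size kept their sign. The median of all genes went from 0.018 to 0.091 after loess. No paired analysis was possible because each group holds 1 array and the replicate numbers are only names; for the same reason no replicate could be left out. Sites in untranslated regions were not analysed here.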

Other observations

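Some gene groups have no place in the account above and are given as values. Of 32 glycolysis and hypoxia genes kept 26 lay higher, 4 of them 2-fold, with a median of 0.30: ENO2, the neuronal enolase, stood at 4.72 with the control and 6.29 with the mimic, under the limit on both arrays, and ADM, adrenomedullin, at 8.22 and 9.28, while HK2, the inducible hexokinase, lay lower, at 8.61 and 7.48. Among Wnt targets and feedback genes, of 25 kept 2 were 2-fold higher and 2 lower; CCND1, cyclin D1, stood at 11.33 and 12.39 and SP5, a Wnt-induced repressor, at 6.39 and 5.17, under that limit too. IMPDH2 and PFAS, enzymes of purine synthesis, stood at 11.01 and 9.65 and at 10.66 and 9.38. Of 22 genes of ER folding and the unfolded protein response 17 lay higher and 1 passed 2-fold, DNAJB9, at 11.41 and 12.53.

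Olfactory receptor genes, which a liver line is not known to use, had 29 of 348 kept, with 3 lower and 1 higher at 2-fold; OR51B5 stood at 12.45 and 10.13.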
